A study of Mus musculus with 6 samples.

Results

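The Notch group described here comprised 10 genes: the receptor genes Notch1, Notch2, Notch3 and Notch4, the ligand genes Jag1, Jag2, Dll1 and Dll4, and the target genes Hey1 and Hes1. They were selected by gene symbol, and all 10 were found among the 52636 genes of the deposited expression table. RNA was measured in 6 libraries of MC38 cells, a mouse colon adenocarcinoma line, that had been grown as subcutaneous tumors in female mice aged 6 to 10 weeks and then sorted. In 3 libraries the genotype was given as MC-38 M1E5-Zfx-KO-Thy1.2, cells edited at Zfx with CRISPR ribonucleoproteins, and in 3 as the control M1E5-Thy1.1. The M1E5 background and the absence of treatment were common to both groups, and the Zfx label and the Thy1 label changed together in every library. The series title speaks of knockout clones, but the number of clones, the strain of the mice and the marker used in the sort are not stated in the labels. The labels do not tie the libraries to different mice. The p-values thus set a group difference only against the spread among these libraries, which may be technical.

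Zfx, an X-linked zinc finger transcription factor and the targeted gene, was not lower in the libraries that carry its knockout label. Its level was 6.30, 6.41 and 6.22 log2 CPM (CPM are the reads of a gene scaled to a common library size) in the 3 libraries labelled Zfx-KO, against 5.68, 5.88 and 5.46 in the controls. The difference was 0.64 (SE 0.10, limma adjusted p = 0.000473), against the direction of the label, and reads over the whole gene do not show whether an edited transcript was counted. Differences below are therefore differences between labels. Depth was 37763096, 38228434 and 65050908 reads per library under the Zfx-KO label and 42392848 to 42962578 in the controls, so that 3 reads correspond to 0.0461 to 0.0794 CPM. Counting intervals given below cover counting error only. Of the 10 colon epithelial markers, 5 could be tested, of which 2 were higher under the Zfx-KO label and 0 lower. Cdx2 had 0 reads in all 6 libraries and Epcam 4 reads in all of them together. Neither shows the colon epithelial origin of the line. Krt8, an epithelial keratin gene, rose by 8.39 (SE 0.47, limma adjusted p = 5.66e-07). It had 524 to 1309 reads under the Zfx-KO label and at most 3 in a control. Krt19 rose by 2.95. Krt18 was not tested, with 0, 27 and 12 reads under the Zfx-KO label and 0 in the controls. Cdh1 (216 reads under the Zfx-KO label, 180 in the controls), Lgals4 (184 and 229) and Vil1 (12 and 2) did not pass. With equal medians Lgals4 had a log2 difference of -0.66 that passed (limma adjusted p = 0.0254). In the libraries labelled Zfx-KO all 12 mural (pericyte and smooth muscle) markers and 13 of 14 endothelial markers tested were also higher, with Cd34 the endothelial marker that was lower. Of these Abcc9, Higd1b and Erg had 0 reads in all controls and passed the filter through 1 group, so they had to be higher. Pdgfrb, another of the 12 mural markers, rose by 0.27 (limma adjusted p = 0.0456) with overlapping groups. The mural count was 11 with equal medians and 9 without replicate 1 or 2 under the Zfx-KO label. Fibroblast markers were higher for 8 of 10 and lower for 1, Pdgfra (log2 difference -0.43, limma adjusted p = 0.000684). Among the 8 was Thy1 (1.16, limma adjusted p = 1.49e-06), the gene named in the genotype labels of both groups. The fibroblast markers with the smallest p were Col1a1 (log2 difference 5.66), Col1a2 (8.62), Pi16 (5.08) and Lum (3.75). The count of 8 became 6 with equal medians, with no filter and with no intensity trend. It was also 6 when any library but control replicate 3 was left out. Of the leukocyte markers, 1 of 8 tested was higher. That marker was Lyz2 (limma adjusted p = 0.0366), whose groups overlapped and whose call held in 8 of 15 alternatives (equal medians, for example, gave 0 calls, and leaving out control replicate 1 gave 2).

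Notch receptors are single-pass membrane proteins that are activated by Jagged or Delta-like ligands on a neighbouring cell. Cleavage by Adam10 and then by gamma-secretase frees the intracellular domain, which joins the DNA-binding protein Rbpj and a Mastermind coactivator at target genes such as Hes1 and Hey1, whose products repress transcription. In blood vessels Dll4, Jag1, Notch1 and Notch4 are known from endothelial cells, whereas Notch3 is known from pericytes and smooth muscle cells, where its activity maintains the mural cell state. In the intestine Notch signalling keeps progenitor cells from becoming secretory cells.

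Promoter sequences are shown for the receptor that differed most between the groups (Notch3), for the ligand Dll4, and for the receptors Notch1 and Notch2, neither of which passed the test. Each is the 250 bases before the start of the gene, 5′ to 3′ in the direction of transcription, from RefSeq on GRCm38.p6, and capitals mark AGGCCT, the core letters of the ZFX binding motif.
Notch3, chr17:32166891-32167140, minus strand: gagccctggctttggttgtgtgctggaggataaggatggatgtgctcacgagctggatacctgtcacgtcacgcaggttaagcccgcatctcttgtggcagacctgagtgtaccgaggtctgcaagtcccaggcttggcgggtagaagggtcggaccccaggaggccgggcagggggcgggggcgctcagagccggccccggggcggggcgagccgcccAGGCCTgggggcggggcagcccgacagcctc
Dll4, chr2:119325534-119325783, plus strand: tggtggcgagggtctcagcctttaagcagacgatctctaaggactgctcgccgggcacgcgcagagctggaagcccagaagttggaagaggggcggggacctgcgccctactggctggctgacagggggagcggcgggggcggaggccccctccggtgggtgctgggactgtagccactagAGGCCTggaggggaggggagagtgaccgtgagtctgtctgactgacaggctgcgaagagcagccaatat
Notch1, chr2:26503823-26504072, minus strand: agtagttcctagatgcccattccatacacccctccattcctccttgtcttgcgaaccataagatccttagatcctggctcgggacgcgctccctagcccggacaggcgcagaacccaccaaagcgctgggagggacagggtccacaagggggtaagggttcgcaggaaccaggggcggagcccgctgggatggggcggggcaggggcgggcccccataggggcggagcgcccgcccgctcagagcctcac
Notch2, chr3:98013288-98013537, plus strand: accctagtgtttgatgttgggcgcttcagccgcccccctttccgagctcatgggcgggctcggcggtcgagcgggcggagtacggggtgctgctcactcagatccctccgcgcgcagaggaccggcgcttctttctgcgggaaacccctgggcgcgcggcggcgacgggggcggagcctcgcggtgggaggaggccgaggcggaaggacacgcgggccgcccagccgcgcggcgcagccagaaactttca
The table held promoters for 8 of the 10 genes (not Hey1 and Hes1). AGGCCT, which reads the same on both strands, stood at bases -31 to -26 from the start of Notch3 and at bases -69 to -64 from that of Dll4. It was also found at bases -23 to -18 before the upstream of the 2 starts of Dll1, and in none of the windows of Notch1, Notch2, Notch4, Jag1 and Jag2. Of all 32851 promoters of this length, 8.7% held these letters. TGGGAA, the core letters of the RBPJ motif, was searched on both strands, does not overlap AGGCCT, and was in none of the 8 genes' windows, against 21.6% of all promoters. Bases just after each start were sought in the GENCODE M21 transcripts of the gene. They were found in neither direction for Notch3 and for the upstream start of Dll1, so that annotation did not bear out those starts. For the other starts they were found in the direction given. A match is a description of letters and not a binding site. Notch4 and Jag2, which were higher under the Zfx-KO label, had no match, and Dll1, which had one, did not pass the test.

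Of the 10 genes, 6 were higher and 1 was lower in the libraries labelled Zfx-KO, and Notch1, Notch2 and Dll1 did not pass. The test was limma's moderated test over 20094 genes with an adjusted p under 0.05, and all 10 passed its filter on low values. Over all genes tested it called 44.4%, of which 24.9% of the genes were higher and 19.5% lower, so a call by itself sets a gene little apart. For 7 of the 10 the ranges of the groups were apart, against 54.1% of all genes. More of a contrast was seen in size: the median log2 difference of the 10 was 1.01, against 0.09 over all genes tested, and 5 of them were at least 2-fold higher, which held with a call for 11.6% of all genes, while 0 were at least 2-fold lower with a call, against 3.65% of all genes. The median of the absolute log2 difference was 1.25 in the group, against 0.39 over all genes. None of the 10 lay near the median of 1.01, which falls between Hes1 (0.26) and Dll4 (1.76). That median was 0.70 with quantile normalization and 0.83 to 1.18 when 1 library was left out.

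**Figure D1:**
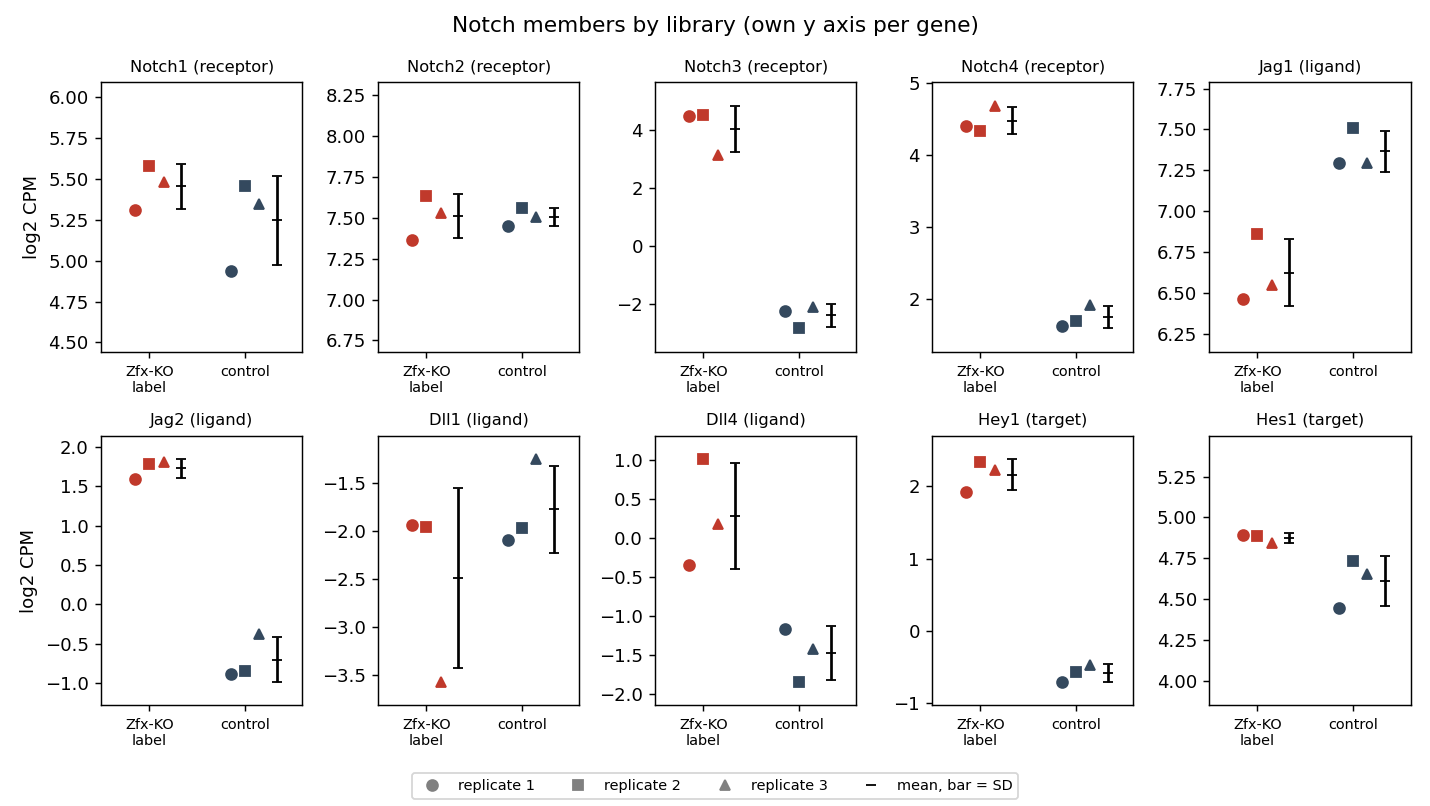
Level of each of the 10 genes (log2 CPM, a separate y axis for each gene) in the 3 libraries labelled Zfx-KO (red, left) and the 3 control libraries (dark, right). Marker shapes give the replicate and bars the mean and SD of each group, and the groups are apart for Notch3, Notch4, Jag1, Jag2, Dll4, Hey1 and Hes1, and overlap for Notch1, Notch2 and Dll1.

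Among the receptors, Notch3 and Notch4 were higher under the Zfx-KO label, while no difference was detected for Notch1 or Notch2. Notch3, the receptor of mural cells, lies on chromosome 17 from 32120820 to 32166880 in GRCm38. Its level was 4.47, 4.53 and 3.13 log2 CPM in the libraries labelled Zfx-KO, against -2.24, -2.85 and -2.10 in the controls. In reads this was 837, 884 and 567 under the Zfx-KO label, against 8, 5 and 9 in the controls. Control libraries thus held Notch3 close to the detection limit, and replicate 3 of the libraries labelled Zfx-KO held far less of it than replicates 1 and 2. In linear units the 3 libraries labelled Zfx-KO stood at 22.2, 23.1 and 8.72 CPM, and the 95% exact counting intervals of replicate 2 (21.6 to 24.7) and replicate 3 (8.01 to 9.46) were apart. In the controls the highest such bound was 0.4 CPM. The log2 difference was 6.44 (SE 0.37, limma adjusted p = 6.68e-07), and 0.508% of the genes tested had a larger one. Without replicate 3 it was 6.90.

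Notch4, a receptor known mainly from endothelium (chromosome 17 from 34564268 to 34588503), had the second-largest rise among the receptors. Its level was 4.40, 4.33 and 4.69 log2 CPM in the libraries labelled Zfx-KO, against 1.62, 1.69 and 1.91 in the controls. Unlike Notch3, it was highest in replicate 3 of the libraries labelled Zfx-KO, and the libraries of each group lay close together. The difference was 2.73 (SE 0.13, limma adjusted p = 1.99e-07).

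Notch1, with roles in many tissues (chromosome 2 from 26457903 to 26503822), stood at 5.31, 5.58 and 5.48 log2 CPM in the libraries labelled Zfx-KO, against 4.94, 5.46 and 5.35 in the controls. The groups overlapped, and the log2 difference was 0.21 with a 95% interval of -0.07 to 0.49 (limma adjusted p = 0.211). With equal medians its sign turned (-0.01). Notch2, the most abundant of the 4 receptors per length (chromosome 3 from 98013538 to 98150361), stood at 7.37, 7.63 and 7.53 log2 CPM in the libraries labelled Zfx-KO, against 7.45, 7.56 and 7.50 in the controls. Here too the groups overlapped, and the interval of the log2 difference was -0.16 to 0.16 (limma adjusted p = 0.974). Setting equal medians, which lowers every log2 difference by 0.21, gave Notch2 a difference of -0.21 that passed (limma adjusted p = 0.0389).

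Per length of exon, Notch2 led the receptors in every library, and Notch3 and Notch4 together took a larger share in the libraries labelled Zfx-KO. Shares are of the summed CPM per kilobase of the 4 receptors. Notch3 made up 10.7%, 9.62% and 3.97% in the libraries labelled Zfx-KO, against 0.115%, 0.0626% and 0.118% in the controls. For Notch4 the share was 12.3% ± 2.06 (SD, n = 3) under the Zfx-KO label and 2.31% ± 0.231 (SD, n = 3) in the controls. Notch2 made up 62.8% ± 1.88 (SD, n = 3) under the Zfx-KO label and 79.2% ± 2.26 (SD, n = 3) in the controls. The share of Notch1 was 16.8% ± 0.573 (SD, n = 3) under the Zfx-KO label and 18.4% ± 2.26 (SD, n = 3) in the controls. The groups did not overlap for Notch2, Notch3 and Notch4, with an exact two-sided permutation p = 0.1 for each, the smallest that 3 against 3 libraries allow, and p = 0.125 after Benjamini-Hochberg adjustment over 10 such tests. Notch1 overlapped (exact permutation p = 0.4, adjusted 0.444). The summed receptor level was 27.7 ± 2.05 CPM per kilobase in the libraries labelled Zfx-KO and 21.9 ± 1.37 in the controls (SD, n = 3 each, exact permutation p = 0.1).

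**Figure D2:**
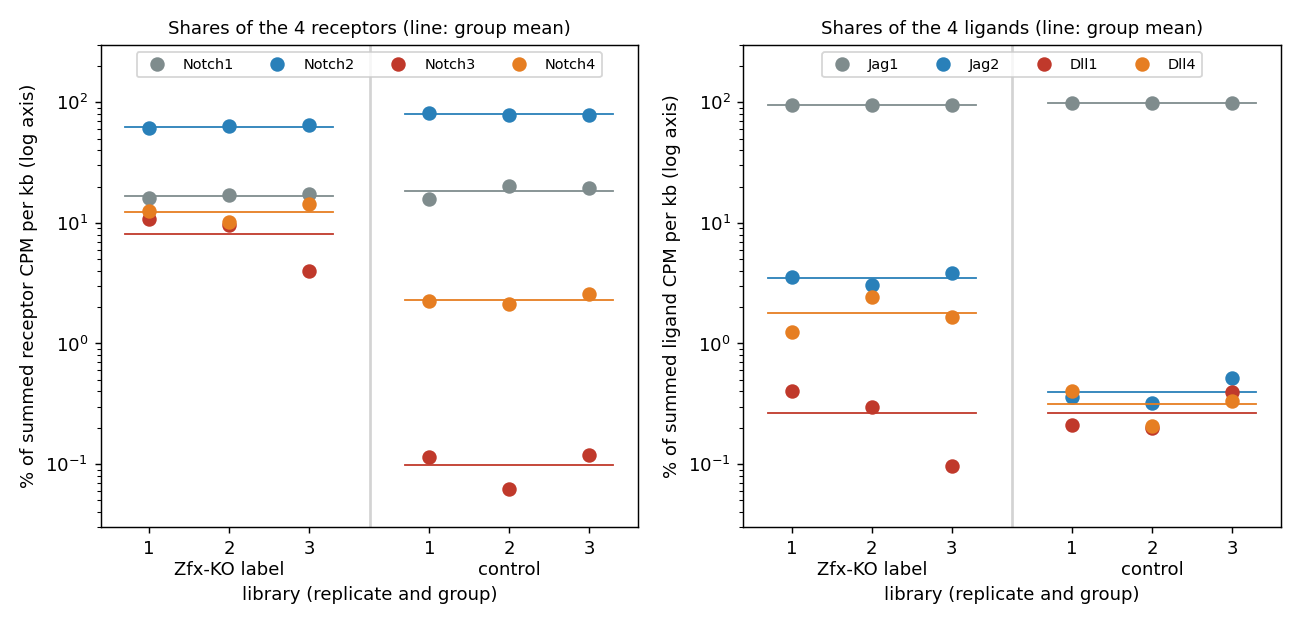
Share of each receptor (left) and each ligand (right) in the summed CPM per kilobase of its class, in percent on a log axis, in the 3 libraries labelled Zfx-KO and the 3 controls; lines are group means. Notch3 sits at 3.97% to 10.7% in the libraries labelled Zfx-KO and at 0.0626% to 0.118% in the controls, and Jag1 makes up over 94% of the ligand level in every library.

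Among the ligands, Jag2 and Dll4 were higher and Jag1 was lower in the libraries labelled Zfx-KO. Jag1, a broadly expressed Jagged ligand (chromosome 2 from 137081456 to 137116644), was at 6.46, 6.86 and 6.55 log2 CPM in the libraries labelled Zfx-KO, against 7.29, 7.51 and 7.29 in the controls. Every library labelled Zfx-KO was below every control. The log2 difference was -0.74 (SE 0.10, limma adjusted p = 0.00022), so that Jag1 was the gene of the 10 that fell. Jag2, the other Jagged ligand (chromosome 12 from 112907819 to 112929776), was at 1.59, 1.78 and 1.81 log2 CPM in the libraries labelled Zfx-KO, against -0.89, -0.84 and -0.37 in the controls. All 3 libraries labelled Zfx-KO were above all 3 controls, by 2.43 on average (SE 0.22, limma adjusted p = 1.41e-05).

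Dll4, a Delta-like ligand of endothelial tip cells and arteries (chromosome 2 from 119325784 to 119335962), had 29, 76 and 72 reads under the Zfx-KO label, against 18, 11 and 15 in the controls. On the log2 CPM scale this was -0.34, 1.01 and 0.18 under the Zfx-KO label, against -1.16, -1.85 and -1.42 in the controls. The groups were apart, but replicate 1 of the libraries labelled Zfx-KO stood near the highest control: its counting interval of 0.514 to 1.1 CPM overlapped the 0.252 to 0.671 CPM of control replicate 1. The log2 difference was 1.76 (SE 0.38, limma adjusted p = 0.00374), and 1.13 with quantile normalization. Dll1, a Delta-like ligand of progenitor cells (chromosome 17 from 15367354 to 15375976), had 9, 9 and 4 reads under the Zfx-KO label and 9, 10 and 17 in the controls. The groups overlapped, and the log2 difference of -0.72 had an interval of -1.89 to 0.45 (limma adjusted p = 0.301). With quantile normalization the difference was -1.52 and passed (limma adjusted p = 0.04).

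Jag1 nonetheless remained the main ligand by level. Per length it made up 94.5% ± 0.305 (SD, n = 3) of the 4 ligands in the libraries labelled Zfx-KO and 99.0% ± 0.258 (SD, n = 3) in the controls. Jag2 took 3.47% ± 0.411 (SD, n = 3) under the Zfx-KO label and 0.4% ± 0.105 (SD, n = 3) in the controls, and Dll4 took 1.77% ± 0.598 (SD, n = 3) under the Zfx-KO label and 0.314% ± 0.0975 (SD, n = 3) in the controls. The exact two-sided permutation p was 0.1 for each of these 3 shares (adjusted 0.125). The summed ligand level was 18.7 ± 2.83 CPM per kilobase in the libraries labelled Zfx-KO and 29.7 ± 2.59 in the controls (SD, n = 3 each, exact permutation p = 0.1), the opposite order to the receptor sum.

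Both target genes were higher, Hey1 by far more than Hes1. Hey1, a transcriptional repressor of the HEY family that acts in vessel development (chromosome 3 from 8663359 to 8667256), was at 1.92, 2.33 and 2.23 log2 CPM in the libraries labelled Zfx-KO, against -0.71, -0.57 and -0.46 in the controls. The groups were far apart relative to their spread, with a difference of 2.74 (SE 0.20, limma adjusted p = 3e-06). Hes1, a HES family repressor that many pathways besides Notch can induce (chromosome 16 from 30065340 to 30067796), was at 4.90, 4.89 and 4.84 log2 CPM in the libraries labelled Zfx-KO, against 4.44, 4.73 and 4.66 in the controls. Its difference of 0.26 (SE 0.08, limma adjusted p = 0.0274) was small, and the call did not hold when replicate 1, 2 or 3 under the Zfx-KO label was left out (limma adjusted p = 0.0767, 0.0737 and 0.0559) or without control replicate 1 (0.118). With equal medians it was 0.05 (limma adjusted p = 0.67).

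**Figure D3:**
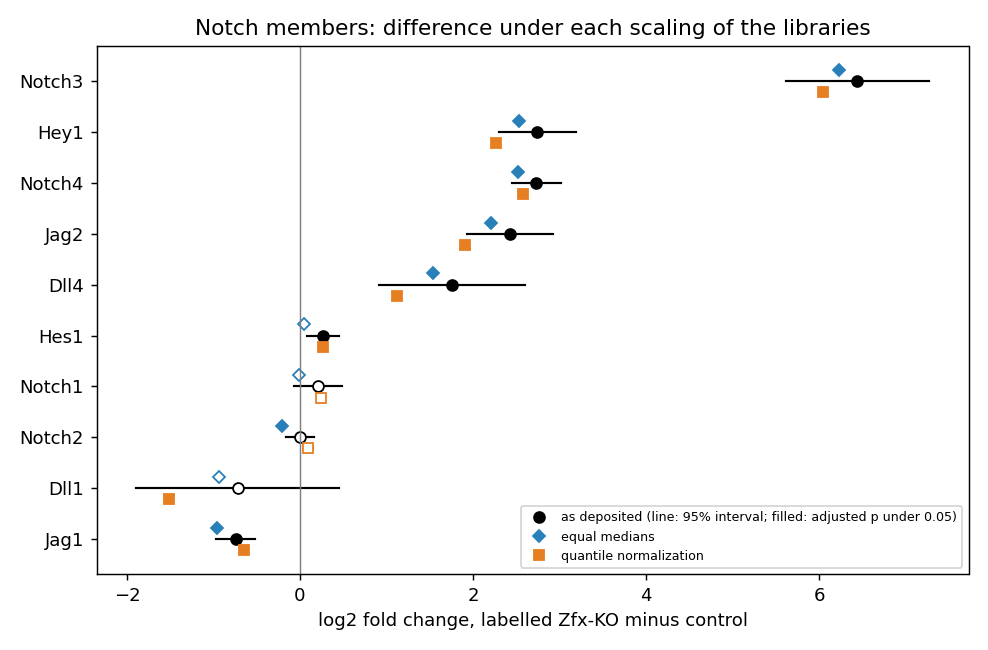
Log2 difference of each of the 10 genes, libraries labelled Zfx-KO minus controls, as deposited (black, with 95% interval), with equal medians (blue) and with quantile normalization (orange); filled symbols have an adjusted p under 0.05. Notch3, Hey1, Notch4, Jag2 and Dll4 are higher and Jag1 is lower under all 3 scalings, and Hes1, Notch2 and Dll1 change their call with the scaling.

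The order of the levels per length differed between the groups. In the libraries labelled Zfx-KO, Hes1 (19.98 ± 0.404 CPM per kilobase, SD, n = 3), Jag1 (17.7 ± 2.63) and Notch2 (17.4 ± 1.61) overlapped at the top. Notch1 (4.64), Notch4 (3.39), Notch3 (2.24) and Hey1 (1.85) followed, of which Notch3 and Hey1 overlapped, and Jag2 (0.644), Dll4 (0.344) and Dll1 (0.0498) came last. In the controls Jag1 stood alone at the top (29.5 ± 2.63 CPM per kilobase, SD, n = 3), Notch2 (17.3) and Hes1 (16.7) overlapped, and Notch1 (4.05) was next. Below them came Notch4 (0.506), Hey1 (0.267), Jag2 (0.118), Dll4 (0.0918) and Dll1 (0.0785), the last 3 with overlapping neighbours, and Notch3 was lowest (0.0214).

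Levels of the genes that overlap these 10 in the annotation were low. Gm17276, antisense to Notch3, had 1 read in all 6 libraries together, and Gm14207, which overlaps Dll4 on the other strand, had 4, all in control replicate 1. The highest was Gm42820, which overlaps Notch2 on the same strand, with 65 to 93 reads under the Zfx-KO label and 56 to 59 in the controls, followed by 0610009E02Rik on the other strand of Notch1, with 16 to 45 reads under the Zfx-KO label and 25 to 31 in the controls.

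The Notch genes did not move in one pattern over the 3 libraries labelled Zfx-KO. Notch3 was lowest in replicate 3, as were 11 of the 12 mural markers, among them Rgs5 (6.74, 6.94 and 5.21 log2 CPM in replicates 1 to 3), Abcc9 (3.69, 3.75 and 2.19) and Mcam (4.68, 4.70 and 3.43). The summed level of the 12 mural markers was 749.6, 748 and 589 CPM in these libraries and 311 to 361 CPM in the controls. Much of it was Cspg4, which stood at 224 to 244 CPM in the controls, where Abcc9 and Higd1b had 0 reads. Some other lists were also often lowest in replicate 3 under the Zfx-KO label. Of the pathway lists described below, this held for 9 of 15 processing, 9 of 16 turnover and 10 of 22 nuclear genes. It held for 5 of 14 other HES and HEY family and target genes and for 1 of 6 ligand-like genes. Among markers it held for 1 of 10 fibroblast and 0 of 8 leukocyte markers. The share over all genes tested was not counted. Notch4 and Jag2 were highest in replicate 3. For Jag2 the counting intervals of replicate 2 (2.84 to 4.04 CPM) and replicate 3 (3.04 to 3.96 CPM) overlapped, so their order is within counting error. The endothelial markers had no common order: of the 14 tested, 6 were lowest and 2 highest in replicate 3, Pecam1 (6.45, 6.81 and 6.86 log2 CPM) being among the 2. The 15 endothelial markers summed to 870 to 935 CPM in the libraries labelled Zfx-KO and to 1285 to 1622 CPM in the controls. That sum was mostly Cd34, at 714 to 805 CPM in the libraries labelled Zfx-KO and 1261 to 1595 CPM in the controls, while the 13 other endothelial markers tested were higher under the Zfx-KO label. Sox17 had 0 reads in replicate 3 of the libraries labelled Zfx-KO and in all 3 controls, Erg had 0 reads in all 3 controls, Tie1 in 2 of them and Cldn5 and Robo4 in 1. Rgs5, Mcam, Cspg4, Cd34, Pdgfrb, Pdgfra, Thy1, Cdh1, Krt18 and the markers without reads were singled out with their values in view. In such bulk RNA a different number of cells of a type and a different amount of RNA per cell cannot be told apart, and the part of these cell types in the Notch differences was not tested.

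**Figure D4:**
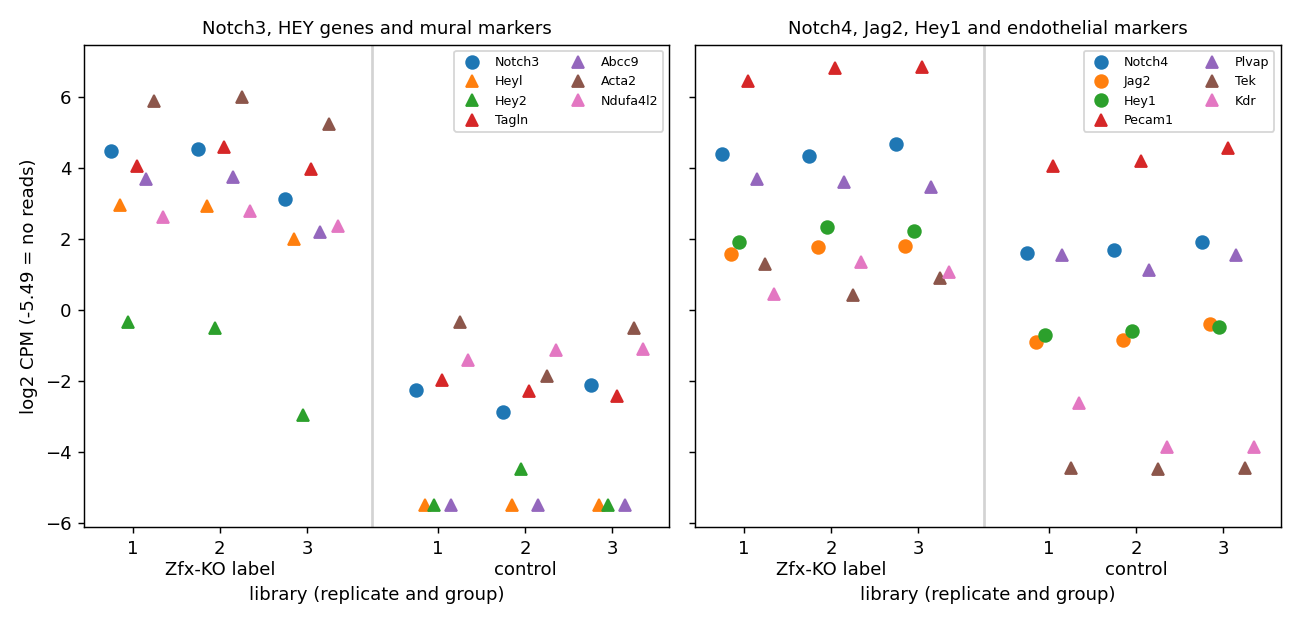
Levels (log2 CPM; -5.49 stands for no reads) in each of the 3 libraries labelled Zfx-KO and the 3 controls. On the left, Notch3, the HEY family genes Heyl and Hey2 and the mural markers Tagln, Abcc9, Acta2 and Ndufa4l2 are lowest in replicate 3 among the libraries labelled Zfx-KO; on the right, Notch4, Jag2, Hey1 and the endothelial markers Pecam1, Tek and Kdr are not lowest there, and Plvap is (markers shown are the 4 with the smallest p of each list).

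Genes with the most similar profile were found by the root mean square difference of log2 values over the 6 libraries after centring, among the genes tested. For Notch3 they were Gucy1b3, a soluble guanylate cyclase subunit (0.21), the mechanosensitive channel gene Piezo2 (0.27) and the aminopeptidase gene Enpep (0.32). For Jag2 they were Pecam1 (0.07), the flippase gene Atp9a (0.11) and the netrin receptor gene Unc5c (0.11). Zfp521 appeared for both Notch4 (0.15) and Hey1 (0.10), beside Olr1 and Gnao1 for Notch4 and Actr3b and Pcdhb5 for Hey1. Jag1 was closest to Tef (0.05), Soat1 (0.05) and Gata6 (0.05). Notch1, Notch2 and Hes1, which varied little, were closest to Phldb2 (0.06), Hars2 (0.03) and Mycbp (0.04). Enpep, Olr1 and Actr3b had no reads in the controls. With 6 libraries in 2 groups these distances mostly compare the difference between the groups.

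Other genes of the pathway were taken from 5 lists by role, 80 genes in all, of which 73 could be tested, 18 were higher and 20 were lower. In percent this was 24.7 higher and 27.4 lower, against 24.9% and 19.5% over all genes tested, and the counts per list below are to be read against the same shares. Their median log2 difference was 0.01 (-0.04 to 0.02 when 1 library was left out), against 0.09 over all genes tested. Without Zfx-KO-labelled replicate 3 11 were higher and 19 lower, and with equal medians the counts were 12 and 34.

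Ligand-like genes outside the 4 canonical ligands were the list with the largest median, 3.71 over 6 genes tested and 3.68 with Dlk1 at its bound. Without replicate 1, 2 or 3 under the Zfx-KO label Dlk1 fell out of the filter and the median was 1.58, 1.36 or 1.25, and with 4 times the prior it was 2.73. Of the 6, 4 were higher and 0 lower. Mfap5 and Mfap2, microfibril proteins reported to bind Notch components, were both higher. Mfap5 had 599, 1058 and 1743 reads under the Zfx-KO label, against 12, 15 and 8 in the controls. For Mfap2 the reads were 231, 190 and 347 in the libraries labelled Zfx-KO, against 1, 0 and 1 in the controls. Mfap5 rose by 6.31 (SE 0.27, limma adjusted p = 1.19e-07), and the ratio of pooled reads of Mfap2 was 349 with a 95% exact interval of 96.2 to 2880. Dlk1, an imprinted gene for a non-canonical ligand, had 45, 97 and 63 reads under the Zfx-KO label and 0 in every control. Taking 3 reads for the control group as a whole, it was at least 62.1-fold higher. Having passed the filter through 1 group, it had to differ. Egfl7, which encodes a secreted factor of endothelium, rose by 1.40 (SE 0.25, limma adjusted p = 0.00106). Dll3 had 4, 4 and 7 reads under the Zfx-KO label and 4, 2 and 1 in the controls and did not pass. Dner had 10, 1 and 7 reads under the Zfx-KO label and 11, 10 and 7 in the controls, and passed with quantile normalization alone (log2 difference -1.75, limma adjusted p = 0.0455). Dlk2 had 0 reads in all 6 libraries.

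Enzymes that modify and cleave the receptors moved by small amounts, with 3 of 15 higher and 5 lower. The 3 became 1 without any one of the libraries labelled Zfx-KO or without control replicate 2, and 2 without control replicate 1 or 3. Adam10, the protease of the first activating cleavage, was at 6.54, 6.50 and 6.39 log2 CPM in the libraries labelled Zfx-KO, against 7.08, 7.20 and 7.02 in the controls, and fell by 0.62 (SE 0.07, limma adjusted p = 4.11e-05). Furin, which cuts the receptor precursor, had a log2 difference of -0.84, the gamma-secretase subunit gene Psen2 one of -0.52 and the O-fucosyltransferase gene Pofut1 one of -0.31 (all 3 passed). Lfng, a glycosyltransferase gene that tunes ligand choice and that was named after its value was seen, rose by 0.69 (limma adjusted p = 0.0101), but not with equal medians (0.48, adjusted p = 0.0537) or quantile normalization (0.46, adjusted p = 0.063). With equal medians 0 of this list were higher and 9 lower.

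For endocytosis and turnover the counts were 3 higher and 3 lower of 16, with 10 not passing. Neurl1b, a ubiquitin ligase gene of the Neuralized family that acts on ligands, rose by 1.64 (SE 0.11, limma adjusted p = 2.18e-06). Mib1, the ubiquitin ligase that drives ligand endocytosis, dropped by 0.78 (SE 0.11, limma adjusted p = 0.000228), and Itch, a ligase that promotes receptor turnover, dropped by 0.82 (SE 0.09, limma adjusted p = 4.57e-05). Dtx2, a Deltex family gene, rose by 0.26 as deposited and by 0.05 with equal medians, where it did not pass (limma adjusted p = 0.706). The list had 3 calls in all without Zfx-KO-labelled replicate 3, and likewise 3 without control replicate 1.

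In the nuclear complex and its corepressors 2 of 22 were higher and 9 lower, with 4 higher when control replicate 2 was left out and 14 lower with equal medians. The Mastermind coactivator genes Maml1 and Maml2 moved in opposite directions. Maml3, named after its value was seen, did not pass (difference 0.15, limma adjusted p = 0.135). Maml1 was at 6.15, 6.23 and 6.24 log2 CPM in the libraries labelled Zfx-KO, against 7.08, 7.03 and 7.04 in the controls (difference -0.85, SE 0.05, limma adjusted p = 1.36e-06). Maml2 was at 3.999, 3.87 and 3.86 in the libraries labelled Zfx-KO, against 3.01, 2.88 and 2.98 in the controls (difference 0.96, SE 0.09, limma adjusted p = 1.98e-05). Among the Groucho-type corepressor genes Tle2 rose by 0.81 and Tle3 fell by 0.61. Rbpj, the DNA-binding factor of the pathway, named after its value was seen, was at 5.03, 4.99 and 4.85 log2 CPM in the libraries labelled Zfx-KO, against 5.72, 5.62 and 5.35 in the controls. It fell by 0.61 (SE 0.10, limma adjusted p = 0.000634), and passed with the same sign under equal medians and quantile normalization.

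The remaining HES and HEY family and target genes had 6 of 14 higher and 3 lower. Heyl, a HEY family repressor known as a Notch3 target in vascular smooth muscle, had 296, 290 and 258 reads under the Zfx-KO label and 0 in every control. With the same floor it was at least 255-fold higher, and like Dlk1 it passed the filter through 1 group. Scaled to depth it was lowest in replicate 3 of the libraries labelled Zfx-KO (7.84, 7.59 and 3.97 CPM), as were Notch3 and 11 of the 12 mural markers. Hey2, a HEY family gene of arteries named after its value was seen, had 29, 26 and 7 reads under the Zfx-KO label and 0, 1 and 0 in the controls, a ratio of 56.3 with a 95% exact interval of 9.74 to 2260. Hes2 and Hes5 had 0 reads in all 6 libraries, Hes6 had a log2 difference of -0.14 and Hes7 one of 0.32, and neither passed.

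Targets outside the HES and HEY family moved both ways. Nrarp, a feedback inhibitor of Notch and named after its value was seen, was at 1.85, 2.22 and 1.52 log2 CPM in the libraries labelled Zfx-KO, against 1.05, 0.86 and 0.67 in the controls, and rose by 1.00 (SE 0.21, limma adjusted p = 0.00311). Id3, an inhibitor of DNA binding also induced by BMP signals, rose by 1.36 (SE 0.09, limma adjusted p = 1.27e-06), and the VEGF receptor gene Flt1 by 3.40 (SE 0.45, limma adjusted p = 0.000172). Efnb2, an ephrin ligand gene of arteries, fell by 0.80 (SE 0.06, limma adjusted p = 3.39e-06). Lower levels were also found for Gata3 (-1.24) and Ccnd1 (-0.55), again chosen with their values in view.

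**Figure D5:**
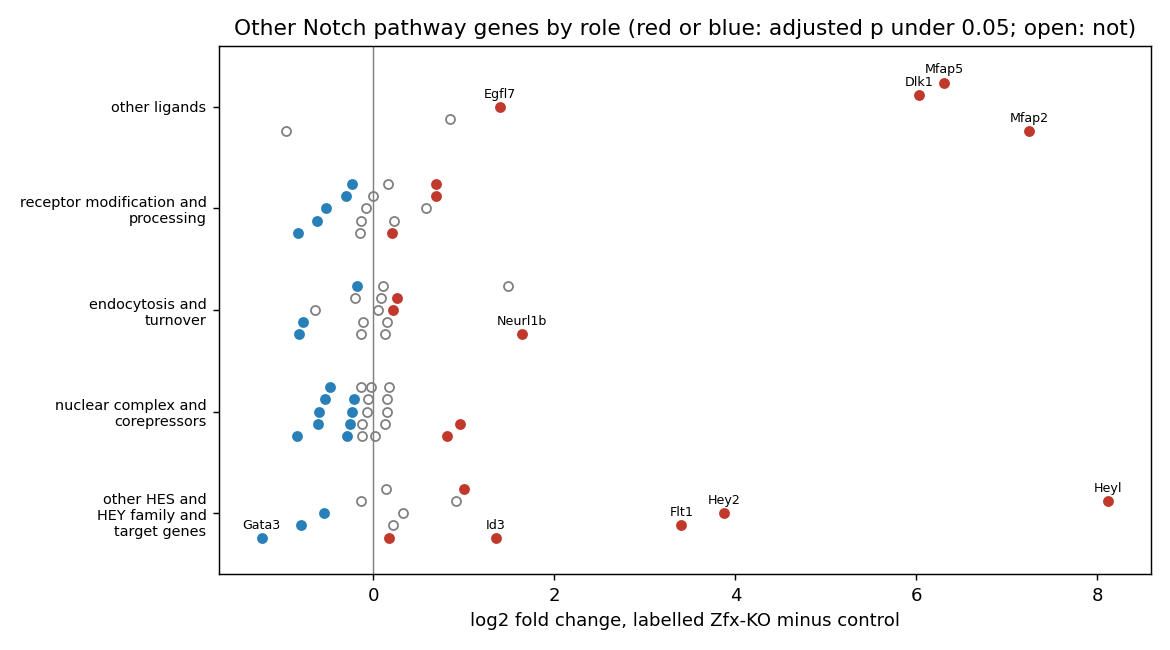
Log2 difference, libraries labelled Zfx-KO minus controls, of the 73 other pathway genes tested, by role; red and blue points have an adjusted p under 0.05 and open points do not. Heyl, Mfap2, Mfap5 and Dlk1 lie above 6 (Heyl and Dlk1 have no control reads, so their place depends on the prior of 1 read), while most genes of the processing, turnover and nuclear lists lie within 1 of zero.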

How the data were processed

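The authors deposited log2 values for 52636 genes in 6 libraries, and 0 columns of other samples. Genes without reads stood at -5.49, and the values were read as log2 CPM with a prior of 1 read in a library of mean size; below 2000 reads every value then gave a whole number of reads within 0.05 reads. Per the labels' protocols, cDNA libraries were read from a single end at 50 bases, and per the submitters' processing notes the builds were GRCh38 and mm10; which aligner and counter were run, and whether strand was used, is not given in those sources. Exon lengths (another deposited column) were summed exon bases, gene starts and ends were those of the deposited exons, and chromosomes came from GENCODE M21 (GRCm38). The 20094 genes with reads in 3 or more libraries, and averaging 1 log2 unit or more over the no-read value, were tested with limma 3.58.1 in R 4.3.3 (two-sided, with an intensity trend; Benjamini-Hochberg adjusted p under 0.05). Shares used exact permutation tests. Between libraries of a group chi-square was 13.2 to 25.4 per gene, so none was a copy of another within counting noise; this does not show separate mice or cultures. Libraries were numbered by record order, which the labels do not describe as a pairing.

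The members, lists, tests and alternatives were chosen with earlier results of these data known. By rule the text named the 10 members, Zfx, all genes of a pathway list of at most 7, up to 4 called genes with the smallest p from each other pathway list and up to 4 from each marker list, and the 3 closest profiles (predicted genes left out) for members with a mean of at least 0 log2 CPM. Alternatives were 2 other filters, equal medians, quantile normalization, no trend, a robust prior, the pseudocount times 0.25 and 4, limma voom on recovered reads, leaving out each library and, for shares, no division by length. The test was checked on data simulated from the control levels, with few changed genes, all at higher counts than Dll1. That check does not cover genes with few reads or the large share of calls seen here. Listed symbols Poglut2 and Poglut3 were not matched.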

Additional observations from a re-analysis of the deposited data

How the results depend on the processing

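Notch3, Notch4, Jag1, Jag2, Dll4 and Hey1 kept their direction and their call under all 15 alternatives; the log2 difference of Notch3 ranged from 6.01 to 6.90 and that of Dll4 from 1.13 to 2.07. Hes1 lost its call under 6 of the 15, among them no intensity trend (adjusted p = 0.0836). The difference of Notch2 turned to -0.21 with equal medians and ranged from -0.0589 to 0.0751 when 1 library was left out (-0.0589 and -0.0057 without replicates 2 and 3 of the libraries labelled Zfx-KO, -0.0226 without control replicate 1); Notch1 turned to -0.0051 with equal medians. With equal medians 3224 genes were higher and 6357 lower over all genes, against 5003 and 3924 as deposited, 33.6% of calls being higher against 56.0%, and 34 pathway genes were lower. The count of members called lower was 2 with equal medians and 2 with quantile normalization. Leaving out 1 library gave 11 to 18 pathway genes higher and 3 to 8 calls in the endocytosis and turnover list, which had 3 with no intensity trend. Without division by length the share differences, in percentage points, were -12.97 for Notch2, 6.92 for Notch4, -3.81 for Jag1, 0.99 for Dll4 and 0.00051 for Dll1, which was -0.0012 with it and ranged from -0.0688 to 0.0832 when 1 library was left out. The causes were not tested, apart from the common shift that equal medians impose. Heyl and Dlk1 fell out of the filter without any one of the libraries labelled Zfx-KO, so 12 alternatives gave them a value. No paired analysis was made, because the labels give no replicate numbers. Some genes followed the record order in both groups, others such as Dll4 did not. Csf1r, chosen with its values in view, was at 4.60, 2.80 and 3.09 log2 CPM under the Zfx-KO label. In the controls it was at 4.55, 2.07 and 3.26. Notch1 was higher under the Zfx-KO label at each record number. Whether libraries of the same number belong together was not tested. Depth limits Dll1, Dll4 and the control levels of Notch3, Jag2 and Hey1, which rest on 4 to 76 reads per library.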
